A study of Bos taurus with 12 samples.

Results

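The 10 genes described here, CD3D, CD3E, CD4, CD8A, CD8B, GZMA, GZMB, PRF1, NKG7 and NCR1, are those of T cells and of the lymphocytes that kill other cells, out of the 17492 gene symbols that the array carries. They were picked by name and not by any measured value. CD4, GZMA and GZMB are each represented by more than one transcript, so that the 10 genes correspond to 13 of the 26323 transcripts. The endometrium was biopsied on Day 15 after oestrus had been synchronised, and each array carried the RNA of 1 cow. The old females (OF, n = 4) were nulliparous and aged 13 to 14 years, and the young females (YF, n = 4) were primiparous and aged 4 to 5 years. All 8 were clones made by somatic nuclear transfer from 1 Holstein donor and therefore shared the same nuclear genome, and age and parity cannot be told apart between the groups. For OF and YF, the biopsies came from the uterine horn on the side of the corpus luteum, and caruncular tissue had been removed by eye. The third group, labelled as contemporary cows, comprised 4 animals whose age, parity and genotype are not given in the sources used here. Contemporary cow 1111, which the labels exclude for a phenotype unlike that of its group, was used only as an alternative, which left n = 3.

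T cells carry a receptor whose signal is passed on by the CD3 chains, and most of them also carry the coreceptor CD4 or the coreceptor CD8, a dimer of CD8A and CD8B. Cytotoxic T cells and natural killer (NK) cells kill by releasing granules in which perforin, encoded by PRF1, opens the way for the granzymes, serine proteases encoded by GZMA, GZMB and their relatives. In the endometrium of ruminants such cells lie in the stroma and, as intraepithelial lymphocytes, between the cells of the luminal and glandular epithelium. In RNA from a whole biopsy, fewer cells of a type and less RNA per cell cannot be told apart.

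Each array was read in 1 colour, and a level is given as log2 of the processed intensity over the 75th percentile of its own array, averaged over the probes of a transcript. Levels are compared between animals for the same transcript and never between transcripts, because probes differ in brightness. The share of probes that stood well above background ran from 71.6% to 74.9% over the arrays. The biopsies were not alike in tissue makeup. The mean level of 7 smooth muscle markers was 6.19 in OF 2258 and 4.59 in OF 0234, against 0.53 to 2.12 in the other 9 animals, and that of 7 epithelial markers was -0.25 in OF 2258 and 0.53 in YF 1069, against 1.26 to 2.47 in the others. All epithelial and stromal markers were well above background on every array. Of the 8 detected genes other than GZMA and CD4, with GZMB read on its brighter transcript, OF 2258 had the lowest level of all 8 OF and YF for 5. Values without OF 2258 and OF 0234 are therefore given beside those of all OF. In these values YF 1069 was kept, although its epithelial markers were low and it was the lowest YF for CD3D, CD3E, NKG7 and GZMB. They are thus not balanced for tissue makeup between OF and YF. The part of tissue makeup in any difference was not tested.

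CD3D and CD3E encode chains of the CD3 complex and mark T cells. The level of CD3E (chromosome 15, 29441565 to 29452179 on UMD3.1) was -0.19, -1.07, -0.24 and -1.80 in OF 0233, 0234, 0245 and 2258. It was -1.66, -1.03, -0.29 and -1.32 in YF 1069, 1070, 1072 and 1127. The contemporary cows 1068, 1128 and 1129 were at -1.16, -1.20 and -0.73. OF 0233, OF 0245 and YF 1072 were thus high and the other clones low, and the groups overlapped. OF minus YF was 0.25 (95% confidence interval -0.71 to 1.21). The span within a group was larger than this difference: the highest OF had 3.06 times the signal of the lowest, and the highest YF 2.57 times that of the lowest. Without OF 2258 and OF 0234, which leaves n = 2, the difference was 0.86 (-0.00 to 1.73, unadjusted p = 0.0506 and adjusted p = 0.993 in limma).

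CD3D (chromosome 15, 29456451 to 29460605), the neighbour of CD3E, had levels of -3.49, -4.25, -3.70 and -4.52 in OF 0233, 0234, 0245 and 2258. In YF 1069, 1070, 1072 and 1127 it was at -4.57, -4.02, -2.88 and -4.28, and in the contemporary cows at -4.31, -3.94 and -3.43. The clones high for CD3E were the highest clones for CD3D as well, with YF 1072 above all others. OF averaged -3.99 ± 0.48 (SD, n = 4), YF averaged -3.94 ± 0.74 (SD, n = 4), and the difference was -0.06 (-0.94 to 0.83). Its sign was not settled: the brighter of its 2 probes alone gave 0.19, and the difference was 0.34 without OF 2258 and OF 0234. The other CD3D probe lay near background and was below it on 2 arrays.

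CD8A and CD8B encode the chains of the CD8 coreceptor, carried by cytotoxic T cells. CD8A (chromosome 11, 47988169 to 47995400) was at -1.34, -1.21, -0.93 and -2.32 in OF 0233, 0234, 0245 and 2258, and at -0.60, -1.29, -1.07 and -1.44 in YF 1069, 1070, 1072 and 1127. The contemporary cows lay close together, at -0.89, -0.86 and -0.94. The only OF outside the range of the YF was 2258, and OF minus YF was -0.35 (-1.08 to 0.38), or -0.03 without OF 2258 and OF 0234. CD8B (chromosome 11, 47915426 to 47935161) was at -1.19, -0.48, -1.15 and -0.70 in the OF in the same order, and at -0.40, -0.16 and -0.73 in the contemporary cows. In YF 1069 it was at 0.66, whereas YF 1070, 1072 and 1127 were at -0.97, -0.89 and -1.09. OF minus YF was -0.31 (-1.21 to 0.59) for CD8B, and it turned to 0.10 when YF 1069 was left out.

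CD4 encodes the coreceptor of helper T cells. Its transcripts (ENSBTAT00000037742, chromosome 5, 103995316 to 104017746, and ENSBTAT00000004219, chromosome 5, 103996389 to 104017746) had 0 of 12 arrays with a probe well above background, and 1 of the 2 probes of each was the same sequence. Levels of the first lay between -8.79 and -7.88 over the 11 animals, at background, and no difference between groups is read from them. That the probes stayed at background does not show that CD4 was absent.

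**Figure D1:**
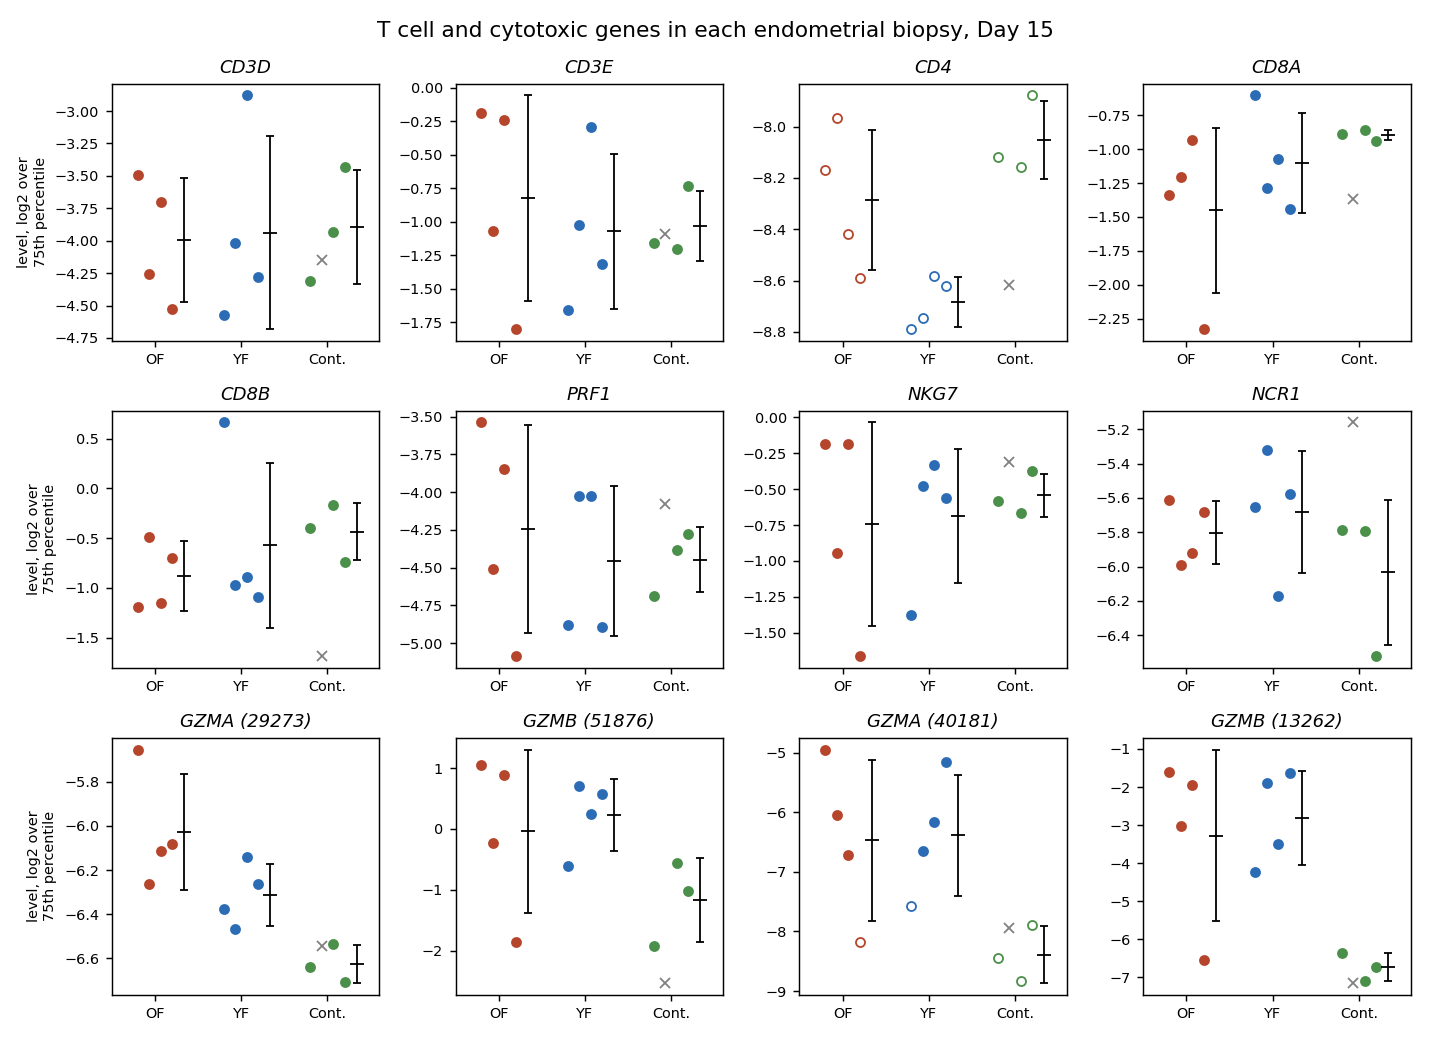
Level of each gene (log2 of the processed intensity over the 75th percentile of the array) in each biopsy from OF, YF and contemporary cows (Cont.), with the mean ± SD beside the points. Open points mark arrays on which no probe was well above background, crosses mark the contemporary cow 1111, left out of means and tests, and the numbers in brackets are the last digits of the transcript. The OF and YF points overlap for every gene, while for both GZMB transcripts the contemporary cows lie low.

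PRF1 encodes perforin. Its level (chromosome 28, 26939280 to 26941721) was -3.54, -4.51, -3.84 and -5.09 in OF 0233, 0234, 0245 and 2258. In YF 1069, 1070, 1072 and 1127 it was -4.88, -4.03, -4.02 and -4.89, and in the contemporary cows -4.69, -4.38 and -4.28. OF held both the highest and the lowest value, 2.92-fold apart, and OF minus YF was 0.21 (-0.65 to 1.07). Without OF 2258 and OF 0234 it was 0.76 (-0.02 to 1.55, unadjusted p = 0.0546 in limma).

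NKG7 encodes a membrane protein of the cytotoxic granule. It was at -0.19, -0.94, -0.19 and -1.66 in OF 0233, 0234, 0245 and 2258, and at -1.38, -0.48, -0.33 and -0.56 in YF 1069, 1070, 1072 and 1127 (chromosome 18, 57812529 to 57815281). The contemporary cows were at -0.58, -0.67 and -0.38. OF 2258 and YF 1069, the animals with the lowest epithelial markers, were also the lowest for NKG7. OF minus YF was -0.06 (-0.91 to 0.80), and 0.50 without OF 2258 and OF 0234.

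NCR1 encodes NKp46, an activating receptor of NK cells. Its level (chromosome 18, 62860199 to 62864521) averages a measured probe and a probe below background on all arrays. It was -5.61, -5.99, -5.92 and -5.68 in OF 0233, 0234, 0245 and 2258, -5.65, -5.32, -6.17 and -5.58 in YF 1069, 1070, 1072 and 1127, and -5.79, -5.79 and -6.52 in the contemporary cows. The groups overlapped, and OF minus YF was -0.12 (-0.58 to 0.34). On the measured probe, OF averaged -4.03 ± 0.18 (SD, n = 4), YF -3.91 ± 0.16 (SD, n = 4) and the contemporary cows -3.98 ± 0.14 (SD, n = 3). YF 1072, the lowest clone on the average of both probes, was the highest clone there, at -3.71.

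GZMA and GZMB are each represented by transcripts of 2 loci, and the widest spans within a group were those of granzyme transcripts. GZMB is named for ENSBTAT00000051876 (chromosome 21, 35135771 to 35137852) and for ENSBTAT00000013262 (chromosome 21, 35264590 to 35267979), called here the bright and the variable GZMB transcript. GZMA is named for ENSBTAT00000029273 (chromosome 20, 24033747 to 24042721) and ENSBTAT00000040181 (chromosome 20, 24048537 to 24059238). The probes that carry the granzyme results are printed 5′ to 3′ from the array files, to show how far the loci can be told apart. In the first pair, capitals mark the bases that the 2 aligned probes share, 38 of 59 aligned positions (64.4%). In the other 2 sequences nothing is marked.
GZMB bright transcript, probe 1: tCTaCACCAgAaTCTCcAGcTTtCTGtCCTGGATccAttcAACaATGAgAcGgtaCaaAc
GZMB variable transcript, probe 2: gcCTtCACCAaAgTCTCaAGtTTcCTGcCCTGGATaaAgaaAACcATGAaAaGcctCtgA
GZMB variable transcript, probe 1: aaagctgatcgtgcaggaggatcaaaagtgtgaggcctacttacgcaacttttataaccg
GZMA ENSBTAT00000040181, probe 2: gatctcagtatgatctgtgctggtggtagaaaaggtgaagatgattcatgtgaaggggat

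Both probes of the variable GZMB transcript shared no run of 20 bases with a probe of any other transcript on the array. The bright GZMB transcript is less clear cut. Its probe 1 was identical over all 60 bases to a probe of ENSBTAT00000017359, an unnamed transcript at 35211414 to 35213420 of the same chromosome, and the identical pair differed by at most 0.16 on the log2 scale on any of 12 arrays. Its probe 2 matched 53 of 56 aligned bases of a probe of ENSBTAT00000017363, unnamed at 35229657 to 35231716. The signal of bright GZMB can thus include RNA of its neighbours, and its locus is uncertain to that extent.

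The bright GZMB transcript was at 1.04, -0.23, 0.89 and -1.86 in OF 0233, 0234, 0245 and 2258. It was at -0.61, 0.70, 0.25 and 0.57 in YF 1069, 1070, 1072 and 1127. The highest OF had 7.47 times the signal of the lowest, and OF 2258 lay below all YF. OF minus YF was -0.27 (-1.70 to 1.17) with all animals and 0.74 (-0.14 to 1.62) without OF 2258 and OF 0234. In the contemporary cows 1068, 1128 and 1129 the level was -1.92, -0.57 and -1.03, so that cow 1128 only just exceeded YF 1069.

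The variable GZMB transcript was at -1.60, -3.02, -1.94 and -6.54 in OF 0233, 0234, 0245 and 2258, and at -4.23, -1.90, -3.49 and -1.64 in YF 1069, 1070, 1072 and 1127. In the contemporary cows it was at -6.36, -7.11 and -6.73. Of the clones, only OF 2258 came down to the range of the contemporary cows. The span among the OF was 4.94 on the log2 scale and that among the YF 2.59. OF minus YF was -0.46 (-2.97 to 2.05), and 1.04 without OF 2258 and OF 0234.

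On each of its probes, the variable GZMB transcript was lower in the contemporary cows than in all 4 YF, while OF 2258 lay within their range. Probe 1 passed the background criterion in all 4 YF, with levels from -4.85 to -2.15, and in 3 of the 4 OF. It passed in 0 of the 3 contemporary cows, and not in cow 1111 either. The contemporary cows were set at the lowest signal that counted as well above background on those arrays. Against it, the signal of probe 1 was at least 9.53-fold higher in YF. For OF the same step gave 5.56-fold, which is not a lower bound, because the OF mean includes OF 2258, itself not well above background. Probe 2 passed on all 12 arrays. YF averaged -2.26 ± 1.22 (SD, n = 4), OF averaged -2.41 ± 1.76 (SD, n = 4) and the contemporary cows averaged -5.16 ± 0.51 (SD, n = 3). OF 2258, at -4.88 on probe 2, lay with the contemporary cows, at -5.76 to -4.86.

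GZMA gave 2 different pictures. ENSBTAT00000029273 was nearly level, from -6.26 to -5.66 in OF, from -6.47 to -6.14 in YF and from -6.71 to -6.54 in the contemporary cows, and 1 of its probes was below background on all arrays. ENSBTAT00000040181 was at -4.95, -6.04, -6.71 and -8.18 in OF 0233, 0234, 0245 and 2258, and at -7.58, -6.66, -6.17 and -5.15 in YF 1069, 1070, 1072 and 1127. The contemporary cows were at -8.45, -8.84 and -7.89. Its probe 2 passed the background criterion in 3 OF and 3 YF and in 0 contemporary cows, so that OF 2258 and YF 1069 were the clones without a measurable level. With the contemporary cows set at the lowest signal well above background, probe 2 was 2.16-fold higher in YF and 1.73-fold higher in OF. These are not lower bounds, because the means include YF 1069 and OF 2258, which were not well above background. Because of its dim values the transcript did not enter limma.

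**Figure D2:**
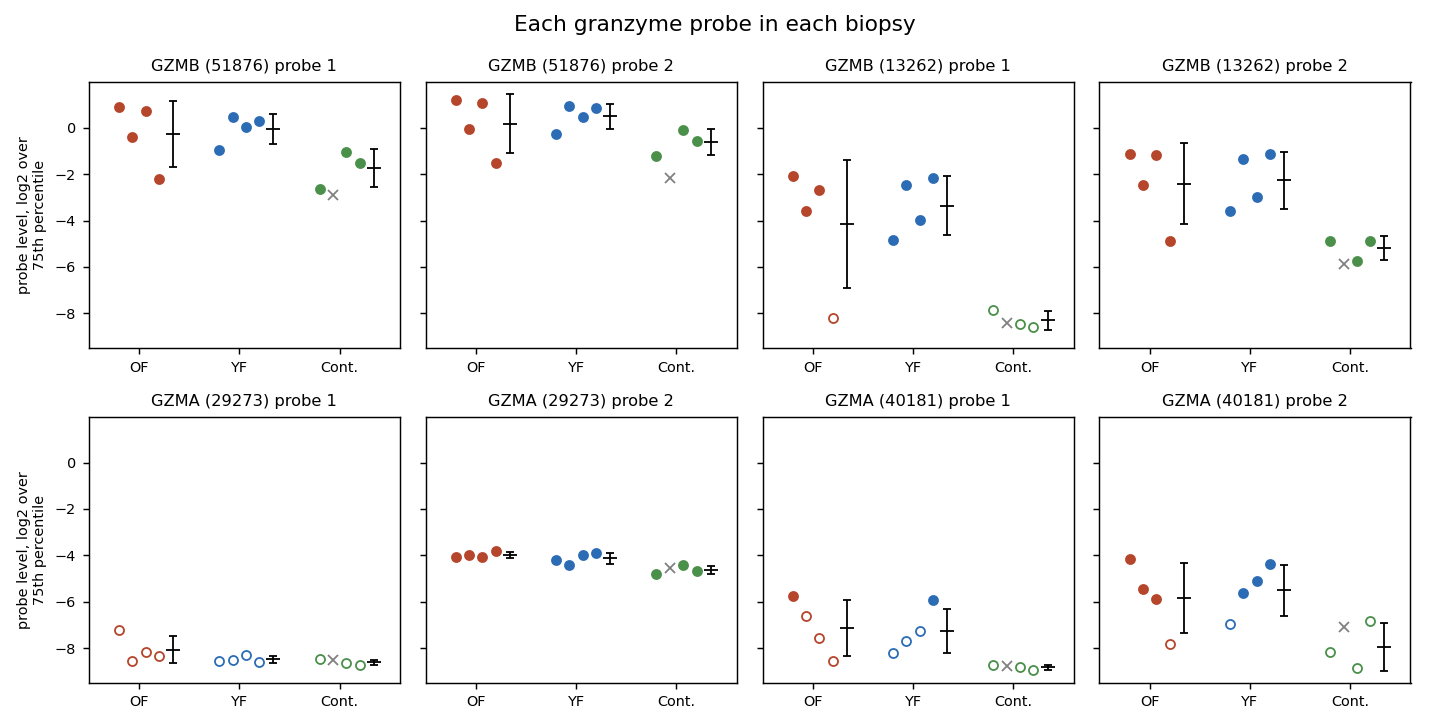
Level of each of the 8 granzyme probes (log2 over the 75th percentile of the array) in each biopsy, with the mean ± SD of each group. Open points are not well above background, and crosses mark the contemporary cow 1111. Probe 1 of the variable GZMB transcript is open in all contemporary cows and in OF 2258, and both probes of the bright one are filled on every array.

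The comparison of OF with YF asks how the endometrium of the same genotype differs between old nulliparous and young primiparous females. In it, 0 of the 10 transcripts tested differed, and 0 had an unadjusted p of 0.05 or less. Over all 19755 transcripts limma also called 0 (0% at an adjusted p of 0.05), and 478 (2.42%) had an unadjusted p of 0.05. Groups did not overlap for 302 transcripts (1.53%), none of them of the 10 genes. The differences ranged from -0.46 for the variable GZMB transcript to 0.28 for GZMA ENSBTAT00000029273, with adjusted p = 0.999 for each in limma. The latter averages in a probe below background on all arrays: on its measured probe OF averaged -3.99 and YF -4.13. The fold change rank ordering statistics (FCROS), the rank method that the study used, called 1300 of 26323 transcripts (4.94%), and 0 of the 10 genes. The intervals show how much remains possible: for CD3E they run from 0.61-fold to 2.32-fold, for PRF1 from 0.64-fold to 2.11-fold and for the bright GZMB transcript from 0.31-fold to 2.25-fold. In the exact permutation test, whose smallest two-sided p is 0.0286 with 4 against 4, p ranged from 0.0571 to 0.971 over the 13 transcripts.

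**Figure D3:**
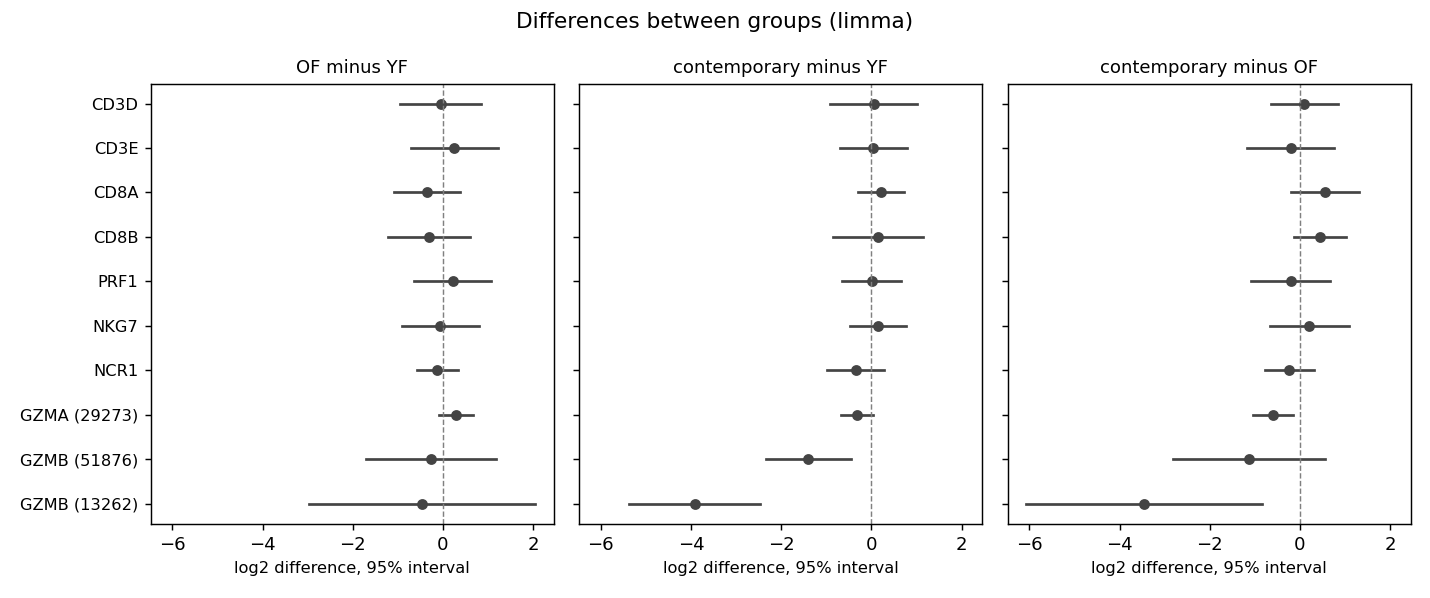
Log2 difference between groups for the 10 transcripts tested by limma, with 95% confidence intervals, for OF minus YF (n = 4 and 4), contemporary minus YF (n = 3 and 4) and contemporary minus OF (n = 3 and 4). All intervals of OF minus YF include 0, while those of the variable GZMB transcript lie below 0 in both comparisons with the contemporary cows.

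The contemporary cows were then set against each age group of clones, and no transcript of these genes passed the adjusted p in limma. Among the transcripts tested, the lowest values relative to the clones were those of GZMB, with the variable transcript below all YF and the bright one overlapping both groups. GZMA ENSBTAT00000040181, which did not enter limma, was lower relative to both clone groups than bright GZMB. It also lay below all YF, but its contemporary values were at background, so its differences are not measured folds. Both comparisons share the 3 contemporary cows, and age, parity and genotype cannot be told apart in them. In contemporary minus YF, the variable GZMB transcript was at -3.92 (95% confidence interval -5.37 to -2.47, unadjusted p = 0.000271), the 14th smallest p of 19993, with an adjusted p = 0.352 in limma. All 3 contemporary cows lay below all 4 YF. Because it averages a probe below background, this difference is not a measured fold, and on probe 2 alone it was -2.90. After a background correction by normexp with an offset of 50 it was -1.74. Over the alternatives the adjusted p ran from 0.109 to 0.99997. The bright GZMB transcript was 1.40 lower than in YF (-2.35 to -0.45, unadjusted p = 0.00947, adjusted p = 0.9999 in limma), with overlap.

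Among the 10 transcripts tested in contemporary minus YF, those were the 2 with an unadjusted p of 0.05 (1 with the slide as a block or with all 3 groups in 1 fit), both lower, where 349 of all 19993 transcripts (1.75%) were lower at that p and 606 (3.03%) passed it in either direction. Groups did not overlap for 2 of the 10, the variable GZMB transcript and GZMA ENSBTAT00000029273, both lower in the contemporary cows, where this held for 463 of all transcripts (2.32%), or 765 (3.83%) in either direction. For GZMA ENSBTAT00000029273 the separation rested on averaging in the probe below background: on its measured probe, contemporary cow 1128 was at -4.422 and YF 1070 at -4.428. Limma called 0 transcripts at an adjusted p of 0.05 (0%). The FCROS method called 1113 of 26323 (4.23%), 603 of them as lower (2.29%), and 4 transcripts of these genes: both of GZMB and GZMA ENSBTAT00000040181, whose contemporary values lie at background, as lower, and CD4 ENSBTAT00000037742 as higher, although the latter was at background throughout. The differences of the other genes in contemporary minus YF were 0.05 for CD3D, 0.04 for CD3E, 0.21 for CD8A, 0.14 for CD8B, 0.01 for PRF1, 0.15 for NKG7, -0.31 for GZMA ENSBTAT00000029273 and -0.35 for NCR1. None of these had an unadjusted p of 0.05, and CD3E could differ from YF by between 0.61-fold and 1.73-fold. The difference of NCR1 averages in its probe below background: on the measured probe YF averaged -3.91 and the contemporary cows -3.98.

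In contemporary minus OF, the variable GZMB transcript was at -3.46 (-6.07 to -0.84, unadjusted p = 0.0163, adjusted p = 0.912 in limma), and OF 2258 lay among the contemporary cows. GZMA ENSBTAT00000029273 was at -0.60 (-1.04 to -0.16, unadjusted p = 0.0142, adjusted p = 0.912), with all contemporary cows below all OF, also on its measured probe, at -4.79 to -4.42 against -4.08 to -3.82. They were the 2 of 10 tested with an unadjusted p of 0.05. At that p 396 of 19914 transcripts (1.99%) were lower and 911 (4.57%) passed in either direction, and limma called 0 (0%) at an adjusted p of 0.05. Groups did not overlap, with the contemporary cows lower, for 583 transcripts (2.93%), or for 1153 (5.79%) in either direction. The bright GZMB transcript was at -1.13 (-2.82 to 0.55). CD3D, CD3E, CD8A, CD8B, PRF1, NKG7 and NCR1 differed by -0.23 to 0.55, none with an unadjusted p of 0.05. FCROS called 1422 of 26323 transcripts (5.4%), 569 of them as lower (2.16%), and among these 3 granzymes, both of GZMB and GZMA ENSBTAT00000040181, as lower. Because they average in a probe below background in the contemporary cows, differences of the variable GZMB transcript are not measured folds. On its probe 2, OF averaged -2.41 and the contemporary cows -5.16. Without OF 2258 and OF 0234, the variable GZMB transcript was at -4.96 (-5.66 to -4.26, unadjusted p = 3.47e-06, adjusted p = 0.0702) and the bright one at -2.14 (unadjusted p = 0.00235). This setting, chosen after the data were seen, leaves n = 2 OF and removes the only OF that lay among the contemporary cows for variable GZMB. In that setting CD3E was at -0.82 and PRF1 at -0.76 (unadjusted p = 0.0112 and 0.0158 in limma), and CD8B at 0.74 (unadjusted p = 0.0201). Adjusted p values of the variable GZMB transcript ranged from 0.0702 to 0.99999 over the alternatives.

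The arrays of the contemporary cows 1068, 1128 and 1129 lay on the same slide, and that of cow 1111 on the other, so the slide was taken into account by comparing within the first. There, with 2 YF and 3 OF, contemporary minus YF was -3.80 and contemporary minus OF -3.01 for the variable GZMB transcript, and -1.15 and -0.83 for the bright one. Chosen after the values had been seen, the 8 OF and YF were also joined as 1 group of 1 nuclear genotype. Limma then called 11 of 19823 transcripts (0.0555%), none of them of these genes, and the variable GZMB transcript had a difference of -3.69 (-5.69 to -1.69) with an adjusted p = 0.460 (883 transcripts, 4.45%, had an unadjusted p of 0.05). The leukocyte and epithelial markers of the contemporary cows, which run with the lymphocyte genes as described below, were at -0.27 to 0.38 and at 1.26 to 1.86. YF spanned -0.43 to 0.25 and 0.53 to 2.23, and OF -0.91 to 0.37 and -0.25 to 2.47. Of other marker lists, all 5 endothelial markers were higher in the contemporary cows than in YF and in OF, with mean levels of -1.37 to -0.30 in the contemporary cows, -1.79 to -1.06 in YF and -1.27 to -0.79 in OF. Against OF, all 6 stromal markers were higher, with a median difference of 0.36, and all 7 smooth muscle markers lower, with mean levels of 1.16 to 1.67 against 0.91 to 6.19. Their part in the granzyme differences was not tested.

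To set the granzymes against other genes of the same granules, the mean level of PRF1 and NKG7 was subtracted in each animal, a measure chosen after PRF1 and NKG7 had been seen to overlap between the groups, so that it is given as a description with no test. For the variable GZMB transcript the result was -1.10, 0.35, -1.31 and 1.09 in YF 1069, 1070, 1072 and 1127 and 0.26, -0.30, 0.07 and -3.17 in OF 0233, 0234, 0245 and 2258. In the contemporary cows it was -3.72, -4.59 and -4.40, below each of the 8 clones, OF 2258 included, although these values average in a probe below background. For the bright GZMB transcript, measured by both probes on every array, the contemporary cows spanned 0.72 to 1.95, YF 2.43 to 3.30 and OF 1.52 to 2.91.

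Across the 11 animals, the levels of CD3D, CD3E, PRF1 and NKG7 were correlated. Of the 45 pairs among the 10 genes, each read on its brightest transcript, 4 had a Benjamini-Hochberg adjusted permutation p of 0.05 or less for Pearson's r, and these joined CD3D, CD3E, PRF1 and NKG7. CD3E and PRF1 had r = 0.92 and Spearman's rho = 0.95 (raw permutation p = 1e-04 for r and 3e-05 for rho, adjusted 0.00450 and 0.00135). CD3E and NKG7 had r = 0.87 and rho = 0.91, CD3D and CD3E r = 0.87 and rho = 0.85 (raw permutation p = 0.00028 and 0.00034 for r, adjusted 0.00510 in both pairs), and PRF1 and NKG7 r = 0.81 and rho = 0.86 (raw permutation p = 0.00124, adjusted 0.0139). Without the 2 animals farthest from the median, r in these pairs was 0.86, 0.84, 0.93 and 0.72. Within the slide that held 8 of the arrays it was 0.95, 0.87, 0.89 and 0.75, and on deviations from group means 0.92, 0.93, 0.90 and 0.87. The relations thus also held inside the groups.

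CD8A and CD8B did not run with them. CD8A had r = 0.28 with CD3E, and rho = -0.01. CD8B ran the opposite way, with r = -0.62 and rho = -0.79 against NKG7, and r = -0.52 and rho = -0.79 against the bright GZMB transcript. Its adjusted permutation p for rho was 0.0319 in both pairs, but those for r were 0.172 and 0.289. Without the 2 animals farthest from the median, r between CD8B and NKG7 was -0.53. Within the slide of 8 arrays it was -0.53, and on deviations from group means -0.74. Between CD8B and bright GZMB these values were -0.83, -0.37 and -0.53. Without OF 2258 and OF 0234, left out after the data were seen, r between CD8B and NKG7 was -0.92. In that setting r between CD8A and CD8B was 0.81, against 0.44 with all 11 animals. The bright GZMB transcript followed NKG7 among the 8 OF and YF (r = 0.95), and over all 11 animals the value was 0.62 (adjusted permutation p = 0.172). This r was 0.56 without the 2 animals farthest from the median and 0.50 within the slide of 8 arrays. It was 0.44 without OF 2258 and OF 0234, and 0.88 on deviations from group means. NCR1 had r = -0.37, -0.13 and -0.23 with CD3E, PRF1 and NKG7. These values average in its probe below background, so no relation of NCR1 is read from them. On the measured NCR1 probe, the clones high for CD3E lay apart from each other. YF 1072 was the highest of the 11 animals, at -3.71, and OF 0245 the lowest, at -4.27, with OF 0233 at -3.89.

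**Figure D4:**
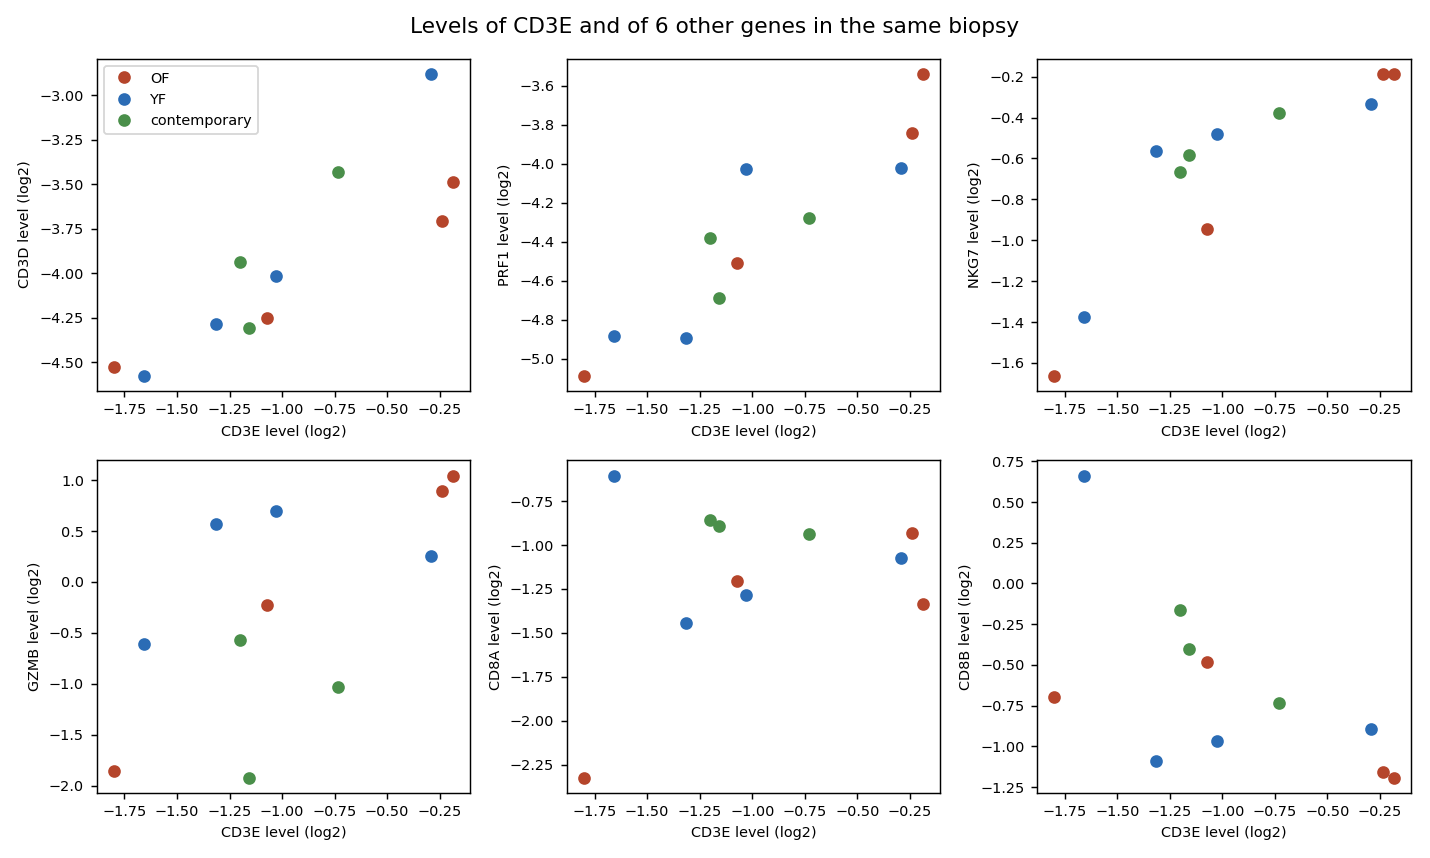
Level of CD3E (horizontal axis) against those of CD3D, PRF1, NKG7, bright GZMB, CD8A and CD8B (vertical axes, all log2 over the 75th percentile of the array) in each of the 11 biopsies, coloured by group. CD3D, PRF1 and NKG7 climb with CD3E, and for GZMB the contemporary cows sit below most clones.

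These genes also moved with the makeup of the biopsy. The mean of 7 markers of all leukocytes had r = 0.91 with NKG7, 0.85 with PRF1, 0.81 with CD3E and 0.78 with CD3D (raw permutation p from 1e-04 to 0.00485, adjusted from 0.00220 to 0.0133 over 22 relations, chosen after the values had been seen). Against the mean of 7 epithelial markers, r was 0.93 for NKG7 and 0.79 for PRF1, and 0.77 for each of CD3E and bright GZMB (adjusted permutation p from 0.00220 to 0.0125). With the epithelial markers, Spearman's rho was 0.87 for bright GZMB and -0.75 for CD8B (adjusted permutation p = 0.0115 and 0.0298). For CD8B, r was -0.56 with the epithelial and -0.46 with the leukocyte markers (adjusted permutation p = 0.145 and 0.226). Its rho with the leukocyte markers was -0.60 (adjusted permutation p = 0.111). Without OF 2258 and YF 1069, r with the epithelial markers was lower for NKG7 and PRF1 (0.68 each) and for CD3E (0.52), but not for bright GZMB (0.84), and for CD8B it went from -0.56 to -0.71. Within the slide of 8 arrays r was 0.94, 0.71, 0.79 and 0.68 for NKG7, PRF1, CD3E and bright GZMB, and -0.43 for CD8B. The part of cell makeup in the levels of these genes was not tested.

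**Figure D5:**
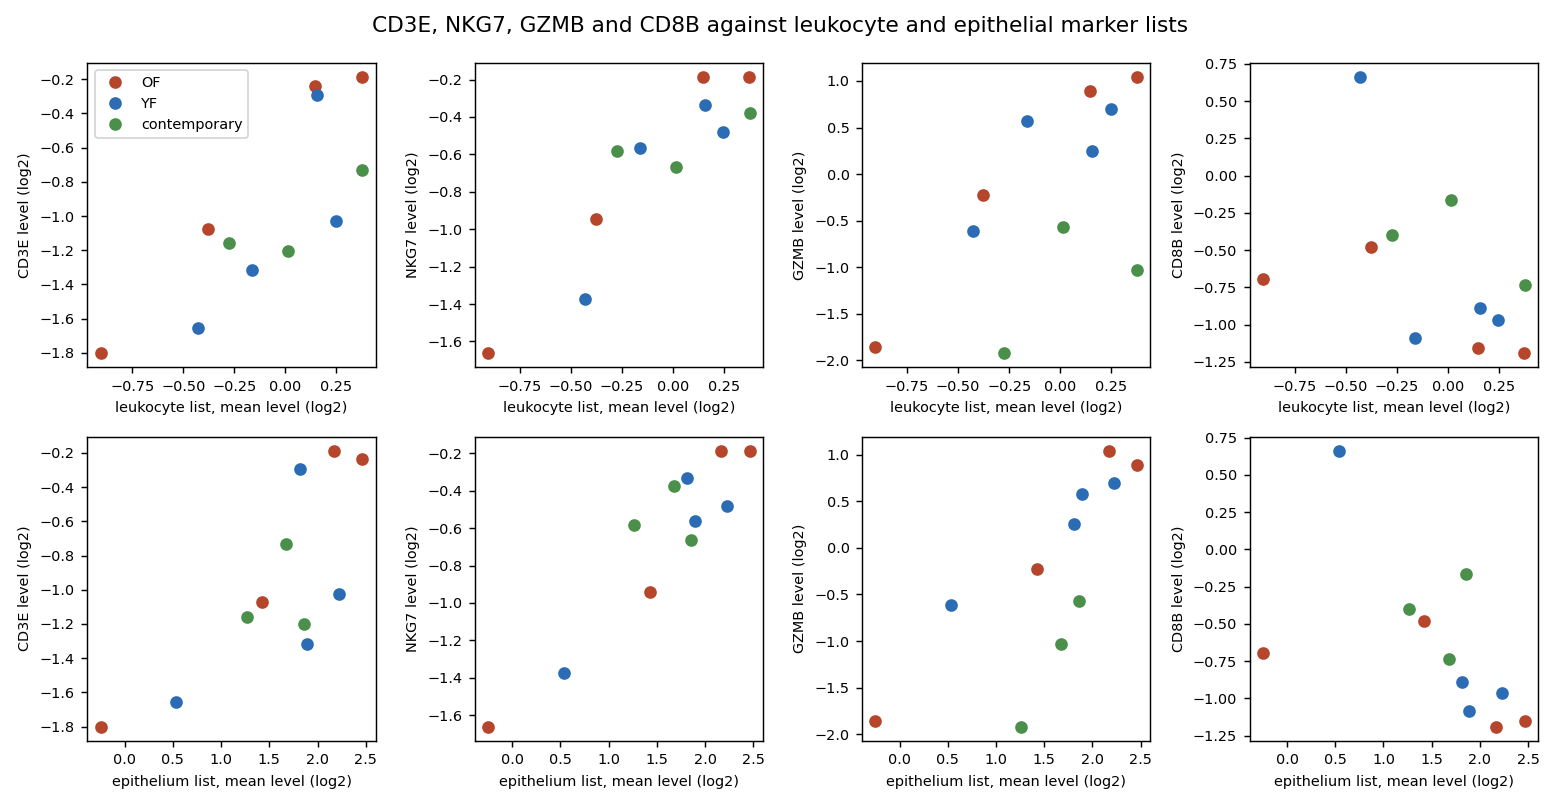
Levels of CD3E, NKG7, bright GZMB and CD8B (vertical axes) against the mean level of 7 leukocyte markers (upper row) and of 7 epithelial markers (lower row), all on the log2 scale, in each of the 11 biopsies. NKG7 follows both lists, CD8B runs against them, and for GZMB the contemporary cows lie below most clones.

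The wider T and NK cell pathways comprised 101 genes with the 10 described, of which 97 are on the array. Of the 91 others, 87 are on the array and 61 were tested in OF against YF, where 0 passed an adjusted p of 0.05, 0 were higher and 1 was lower at an unadjusted p of 0.05, beside 1.43% and 0.987% of all transcripts. Their median difference was 0.13, beside 0.01 for all transcripts tested. The gene that was lower was SH2D1A, which encodes SAP, an adaptor of the SLAM receptors on T and NK cells. It was at -4.79, -5.23, -5.22 and -5.22 in OF 0233, 0234, 0245 and 2258 and at -4.56, -4.34, -4.79 and -4.52 in YF 1069, 1070, 1072 and 1127. The ranges met at OF 0233 and YF 1072, and the difference was -0.56 (-0.93 to -0.19, unadjusted p = 0.00822, adjusted p = 0.999 in limma). In the contemporary cows SH2D1A was at -4.72, -4.07 and -4.20.

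By function, the T cell receptor complex and its coreceptors had a median difference of -0.03 in OF minus YF, with 3 of 8 tested genes higher, and the signalling and costimulation genes one of 0.02, with 7 of 14 higher. For the contents and release of cytotoxic granules it was 0.11, with 10 of 16 higher, and for the NK receptors and their adaptors -0.01, with 6 of 12 higher. Transcription factors of T and NK cells had a median of 0.16 and 7 of 9 higher, and cytokines with their receptors 0.23 and 6 of 8. Inhibitory receptors had 0.13 and 3 of 3. Granzyme K, the granzyme encoded by GZMK, was well above background on no array, like IL2, ICOS, THEMIS, BCL11B, TIGIT, KLRG1 and SH2D1B, and no level is given for them.

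In contemporary minus YF, 3 of the 61 other pathway genes tested were higher at an unadjusted p of 0.05 (1.29% of all transcripts were) and 0 lower, and 0 passed the adjusted p. These were GATA3 (0.69), a transcription factor of T helper and innate lymphoid cells, KLRC1 (1.72), an NK receptor of the NKG2 family, and FCGR3A (0.74), the Fc receptor CD16 of NK cells and macrophages. In contemporary minus OF, 4 of 62 were higher, against 2.59% of all transcripts, and 1 lower: SH2D1A (0.79), CTSC (0.54), which encodes the protease that activates granzymes, TNFSF10 (0.64), the death ligand TRAIL, and FCGR3A (0.95) were higher, and the chemokine gene XCL1 (-0.55) was lower. Their adjusted p values in limma were 0.904 to 0.9999. The macrophage markers, of which 7 were tested, had positive differences against YF and against OF, with medians of 0.34 and 0.44, but 0 passed an adjusted p, and 0 had an unadjusted p of 0.05 against YF and 1 against OF. Their mean level was -0.43 and -0.62 in contemporary cows 1128 and 1129, and -1.14 in cow 1068, within the range of the YF (-1.16 to -0.81).

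Among 16495 transcripts well above background on all 11 arrays, those most like the mean of CD3D and CD3E over the animals included P2RY10 (r = 0.94), TRAC (0.94), FNTB (0.94), NLRC3 (0.94), CD244 (0.94), CD2 (0.93), CD7 (0.93), KHNYN (0.92) and CNOT8 (0.92). TRAC encodes the constant part of the T cell receptor alpha chain, and CD2 and CD7 surface proteins of T and NK cells. The transcripts most like the mean of GZMA, GZMB, PRF1, NKG7 and NCR1 were VPS39 (0.94), CC2D1B (0.94), RNF157 (0.94), SFT2D2 (0.94), TPPP2 (0.93), LOC511617 (0.91), LRRC14 (0.91), PLS1 (0.90), MFSD9 (0.90) and TTC19 (0.90). PLS1 encodes plastin 1, an actin-bundling protein of epithelial cells. Both sets are the top of a ranking over 11 animals that share differences in tissue makeup, and are given as a description with no test.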

How the data were processed

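Total RNA from 12 endometrial biopsies was hybridized in 1 colour (Cy-3) to a custom bovine array. The authors deposited the Agilent Feature Extraction 10.7.3.1 output, in which the processed intensity of each spot is corrected for background and not normalized between arrays. Positions are those of the array annotation (UMD3.1). The files hold no counts, and the number of arrays limits the precision.

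Log2 of the intensity minus the 75th percentile of the array was computed after removal of 1319 control spots and of 66 probes flagged as outliers, which kept 61333 probes. Probes were averaged per transcript (26323). Of these, 21956 had a symbol, 9 of them through RefSeq accessions. The main test was limma (version 3.58.1, R 4.3.3) over every transcript that had, in at least one of the groups, some probe above background on all its arrays, two-sided, with Benjamini-Hochberg adjustment at 0.05. Only the groups compared entered a fit. FCROS was coded from its published description (f-values beyond 0.025 and 0.975, fold change of 1.5, ranks trimmed by 0.25 at each end) and run on all transcripts. Single levels were also compared by an exact permutation test, and correlations by permutation with 100000 resamples (scipy 1.17.1). Tests were checked on simulated arrays.

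The 10 genes, the gene lists, tests and alternatives were chosen with earlier results of these data known. Named were the 10 genes, pathway genes with an unadjusted p of 0.05 in OF against YF, and the 10 transcripts most correlated with each of 2 gene means, of which 1 is not reported here. Other pathway genes were named after their values were seen. For a gene with several transcripts the one with the highest mean level was taken, and the others are given beside it. Each array is 1 animal, and the sources name no technical replicate. Alternatives were quantile normalization, normexp, median scaling, the brightest probe, each probe alone, no filter on dim probes, a slide block, a joint fit of the 3 groups, array weights, inclusion of cow 1111, and each animal left out. Added after the data were seen were leaving out OF 0234 with OF 2258, joining OF and YF, granzymes relative to PRF1 and NKG7, and relations with marker lists.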

Additional observations from a re-analysis of the deposited data

Results flagged for a closer look

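CD8B in YF 1069 was at 0.66, the highest of the 4 YF, and the nearest other YF, 1072, was at -0.89, a gap that takes up 0.887 of the range of the group. It was the only such sample in 22 groups of 4 animals that were tested, and chance gives about 1 in 20, so that this count is the one chance gives. YF 1069 also had the highest CD8A (-0.60) and the lowest NKG7 (-1.38), CD3D (-4.57) and CD3E (-1.66) among the YF, and its epithelial markers were the lowest of the group, at 0.53.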

How the results depend on the processing

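None of the 10 genes passed an adjusted p of 0.05 in limma under any alternative, and the smallest was 0.0702, for the variable GZMB transcript in contemporary against OF without OF 0234 and OF 2258. Several differences changed sign, among them that of variable GZMB in OF against YF, the largest of that comparison (-0.46). In OF against YF, the difference of CD3D was 0.0806 with normexp, 0.19 with its brightest probe or with probe 1 alone, 0.13 with the slide as a block and 0.34 without OF 0234 and OF 2258. That of NCR1 was 0.10 with normexp, and that of NKG7 0.10 with the slide as a block and 0.50 without those 2 animals, when variable GZMB was at 1.04 and bright GZMB at 0.74. Array weights gave -0.12 for CD3E, 0.16 for CD8B and -0.14 for PRF1. In contemporary against YF, CD3D was at -0.00382 with normexp, -0.22 with array weights and -0.0181 with cow 1111, PRF1 at -0.0506 with normexp, -0.10 with the brightest probe and -0.15 with array weights, CD8B at -0.22 with the slide as a block and -0.17 with cow 1111, and with array weights CD3E was at -0.25 and NKG7 at -0.0643. In contemporary against OF, CD3D was at -0.0844 with normexp, at -0.0797 with the brightest probe and at -0.29 without OF 0234 and OF 2258, NCR1 at 0.0480 with the brightest probe, and NKG7 at -0.36 without those 2 animals. The cause was not tested.

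Leaving out 1 animal at a time, the differences in OF against YF ran from -0.27 to 0.30 for CD3D, -0.48 to 0.10 for CD8B, -0.28 to 0.25 for NKG7, -0.0223 to 0.49 for PRF1, -1.02 to 0.63 for variable GZMB and -0.63 to 0.34 for bright GZMB, and the upper ends for both GZMB transcripts came without OF 2258. In contemporary against YF they ran from -0.18 to 0.40 for CD3D, -0.15 to 0.30 for CD3E, -0.0342 to 0.55 for CD8B, -0.14 to 0.15 for PRF1, -0.0825 to 0.26 for NKG7 and -4.39 to -3.53 for variable GZMB. In contemporary against OF they ran from -0.13 to 0.31 for CD3D, -0.53 to 0.00641 for CD3E, -0.49 to 0.0302 for PRF1, -0.10 to 0.39 for NKG7, -0.36 to 0.0125 for NCR1 and -4.54 to -2.90 for variable GZMB. Of all alternative differences of these genes, 461 kept their sign and their side of the threshold and 57 changed sign.

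Against 0 transcripts called by limma, FCROS called 1300 in OF against YF, 1113 in contemporary against YF and 1422 in contemporary against OF, with 0, 4 and 3 of the 13 transcripts of these genes and 4, 8 and 4 of the wider pathway genes. In contemporary against YF, limma called 1 transcript with quantile normalization, 2 with all 3 groups in 1 fit, 1 with array weights and 4 with cow 1111, and 0 to 1 with 1 animal left out. In contemporary against OF it called 26 with array weights, 2 with cow 1111 and 0 to 1 with 1 animal left out. The count of correlated pairs was 4 to 6 with quantile normalization, normexp, median scaling or the brightest probe. No paired analysis was possible because the replicate numbers are those of single animals and no number occurs in 2 groups. A probe below background on every array of a group gives at most a bound, which limits variable GZMB and GZMA ENSBTAT00000040181.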

Other observations

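The stretch of chromosome 21 between the 2 GZMB loci (35135771 to 35267979 on UMD3.1), which was looked at after the granzyme values had been seen, holds 9 transcripts of the array, 7 of them tested in contemporary against YF. All 7 were lower in the contemporary cows at an unadjusted p of 0.05, beside 349 of all 19993 transcripts (1.75%), but the stretch was chosen because both its ends were already seen to be low. Besides both GZMB transcripts these were 5 without a symbol in the tables used here, ENSBTAT00000057123 (log2 difference -1.36), ENSBTAT00000056052 (-1.08), ENSBTAT00000014364 (-0.81), ENSBTAT00000017359 (-1.97) and ENSBTAT00000017363 (-1.55). They are not independent measures: ENSBTAT00000017359 has a probe identical to one of GZMB, and ENSBTAT00000017363 one that is nearly so. ENSBTAT00000057123 and ENSBTAT00000056052 also overlap in position, and both are annotated up to 35152721. For ENSBTAT00000017359, ENSBTAT00000017363 and the variable GZMB transcript all 3 contemporary cows lay below all 4 YF, and for none of the 7 did they lie below all 4 OF. The mean level of ENSBTAT00000017359 was -1.27 in OF, -0.996 in YF and -2.97 in the contemporary cows.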
